A study of Arabidopsis thaliana with 12 samples.

Results

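The 6 nuclear genes *SIG1* (AT1G64860), *SIG2* (AT1G08540), *SIG3* (AT3G53920), *SIG4* (AT5G13730), *SIG5* (AT5G24120) and *SIG6* (AT2G36990), which encode the sigma factors of the plastid RNA polymerase, were read across 12 RNA libraries of *Arabidopsis thaliana*. They were chosen by AGI locus, and all 6 are among the 33601 loci counted. The libraries came from whole Columbia seedlings that were 3 days old and had been kept in darkness after a light treatment to start germination. Wild type (WT) and the quadruple mutant *pif1pif3pif4pif5* (*pifq*) were grown on medium without drug (the groups WT dark and *pifq* dark) or with 0.5 mM lincomycin (linc; the groups WT dark linc and *pifq* dark linc), with 3 libraries in each of the 4 groups. No group was grown in the light, and *pifq* is deficient in PIF1, PIF3, PIF4 and PIF5, not in all PIFs, throughout its life and in every cell.

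Sigma factors are the subunits that let the plastid-encoded RNA polymerase recognise promoters in the plastid genome. The core of this polymerase is encoded in the plastid, whereas the sigma factors and the proteins bound tightly to the core are made in the cytosol from nuclear genes and imported. The PIFs are bHLH transcription factors that hold back light-type development in darkness. Lincomycin blocks plastid ribosomes and sets off plastid-to-nucleus retrograde signalling (RS).

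The libraries hold polyA-tailed 3′-end fragments, and reads were counted on the last 500 bp of each transcript. Library totals were between 11495950 and 17612505 counts. Levels are given as CPM, counts relative to the library total, after TMM scaling over the 12 libraries, a scaling that assumes most genes to be at like levels (normalized CPM). TMM factors were 0.809 to 0.869 in *pifq* dark and 0.995 to 1.11 elsewhere. Every gene is counted over a window of the same length, so levels do not grow with transcript length. How fully the window captures the reads of each gene was not checked, which limits comparisons of level between genes. In TAIR10.1, no other protein-coding gene shared 100 nt or more at 90% identity with the 3′-end window of any member. *SIG4* overlaps 1 protein-coding gene on the opposite strand, and the counting used the coding strand.

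The labels were checked on marker genes. *PIF3* had a mean of 105 normalized CPM in WT dark and 119 in WT dark linc, against 1.61 and 1.89 in *pifq* without and with drug, and the means of *PIF1* and *PIF5* were at most 0.560 in either *pifq* group. The 3′ reads of *PIF4* had means of 8.29 in WT dark and 12.8 in *pifq* dark, so they do not check that allele. *PORA*, a marker of etiolated tissue, ran from 66.8 in the lowest *pifq* dark linc library to 1319 in the highest WT dark library. The summed level of 2 epidermal genes was 132 to 160 in WT dark, 155 to 164 in WT dark linc, 193 to 239 in *pifq* dark and 233 to 250 in its treated group. That of 4 seed storage genes was 54.4 to 120 in WT dark, 35.0 to 115 in WT dark linc, 14.3 to 28.3 in *pifq* dark and 7.29 to 19.5 in its treated group. That of 4 root genes was between 29.9 and 40.4 in all groups, with *PLT1* and *PLT2* near 0. The part of these markers in the results was not tested. In whole seedlings, fewer cells that express a gene and less RNA per cell cannot be told apart.

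Sequence upstream of 3 members is shown because PIFs and the GLK factors act through short promoter motifs. The 250 bases before the annotated start of each member in TAIR10.1 were searched on both strands for the G-box CACGTG, for the PIF-binding E-box CACATG and for CCAATC, a putative GLK site. Among such windows of 27443 protein-coding genes, 6.49% held a G-box, 11.1% a PIF-binding E-box and 10.2% CCAATC. *SIG5* held 1 PIF-binding E-box, 223 to 218 bases before its start. *SIG2* held CCAATC at 2 places on the opposite strand, 40 to 35 and 34 to 29 bases before its start, next to each other without overlap. The windows of *SIG1*, *SIG3*, *SIG4* and *SIG6* held none of the 3 motifs, and of all windows 25.1% held any of the 3. Of the 250 bases searched, 187 for *SIG1*, 118 for *SIG2* and 144 for *SIG6* lay in exons of another gene. The sequences run 5′ to 3′ on the gene's own strand up to the base before its start, with motifs in capitals. Those of *SIG5* (chr5:8160344-8160593, minus strand) and *SIG4* (chr5:4430902-4431151, minus strand), a member with none of these motifs, cover the whole window. That of *SIG2* (chr1:2703163-2703294, plus strand) stops where an exon of the neighbouring gene begins. None is shown for *SIG1* (chr1:24097736-24100970, plus strand), since a neighbour's exon ends 2 bases short of its start.
SIG5: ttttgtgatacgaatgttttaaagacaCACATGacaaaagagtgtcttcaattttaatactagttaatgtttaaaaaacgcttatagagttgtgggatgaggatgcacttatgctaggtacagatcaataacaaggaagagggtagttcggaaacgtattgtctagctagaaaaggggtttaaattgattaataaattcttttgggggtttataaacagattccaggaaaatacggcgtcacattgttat
SIG2: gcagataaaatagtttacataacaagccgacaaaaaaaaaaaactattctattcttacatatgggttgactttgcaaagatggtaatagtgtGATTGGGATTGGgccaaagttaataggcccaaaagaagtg
SIG4: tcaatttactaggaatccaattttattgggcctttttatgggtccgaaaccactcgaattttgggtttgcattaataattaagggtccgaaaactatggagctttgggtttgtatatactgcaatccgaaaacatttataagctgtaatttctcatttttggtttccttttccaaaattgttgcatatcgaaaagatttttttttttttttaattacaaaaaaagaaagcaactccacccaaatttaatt
A match is a description of the letters and not a bound site.

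*SIG1*, whose product takes part in transcribing photosystem genes in the plastid, passed the test in all 5 pairwise comparisons. Without drug its levels in replicates 1 to 3 were 12.3, 15.7 and 14.7 normalized CPM in WT and 40.8, 40.3 and 49.3 in *pifq*. With lincomycin they were 4.21, 3.84 and 5.73 in WT and 9.34, 9.16 and 8.46 in *pifq*. The 4 groups did not overlap, with *pifq* dark highest and WT dark linc lowest. *SIG1* was 3.04-fold higher in *pifq* dark than in WT dark, a log2 fold change (log2FC) of 1.60 with a standard error (SE) of 0.14 (Benjamini-Hochberg adjusted p = 5.31e-06, edgeR quasi-likelihood test). Lincomycin lowered it in WT, with a log2FC of −1.63 (SE 0.18, edgeR adjusted p = 2.42e-05), and in *pifq*, with −2.28 (SE 0.13, edgeR adjusted p = 1.23e-07). Between the treated genotypes it was higher in *pifq* by 0.94 (SE 0.18, edgeR adjusted p = 0.000316). Treated *pifq* was below untreated WT, with a log2FC of −0.66 (SE 0.15, edgeR adjusted p = 0.00220). All of these calls held under each alternative tried.

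**Figure D1:**
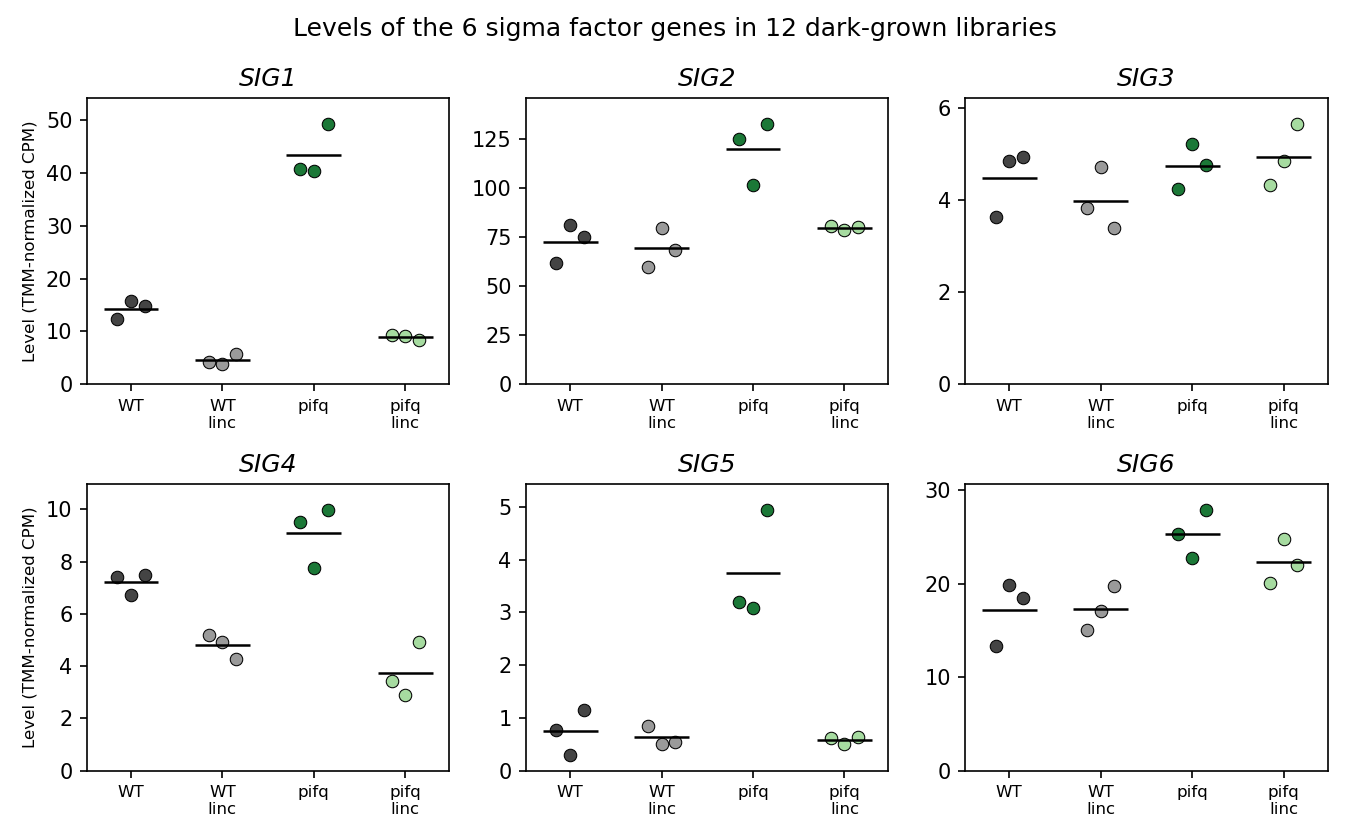
Level of each sigma factor gene (vertical axis, TMM-normalized CPM, from 0 with its own range in each panel) in the 4 groups, with 1 point per library and a bar at the mean of 3. *SIG1* and *SIG5* stand highest in *pifq* dark, at means of 43.5 and 3.74, whereas *SIG3* lies between 3.39 and 5.64 in all libraries.

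*SIG5*, which drives the light-responsive promoter of the plastid gene *psbD*, had the lowest mean of the 6 members in every group. Without drug it had 15, 4 and 22 counts in the WT libraries and 40, 39 and 55 in those of *pifq*. With lincomycin it had 11, 7 and 10 counts in WT and 8, 7 and 8 in *pifq*. The *pifq* dark libraries lay above all others, and the remaining 3 groups overlapped. As levels, the means were 0.741 ± 0.420 normalized CPM in WT dark, 3.74 ± 1.04 in *pifq* dark, 0.631 ± 0.183 in WT dark linc and 0.580 ± 0.0655 in *pifq* dark linc (SD, n = 3). *SIG5* was below the minimum of 5 CPM in at least 2 libraries and so outside the main test. In a fit with no such minimum it was higher in *pifq* dark than in WT dark, with a log2FC of 2.22 (SE 0.34, edgeR adjusted p = 8.27e-06), as were 14.3% of all genes in that fit. It fell under lincomycin in *pifq*, with −2.66 (SE 0.33, edgeR adjusted p = 1.15e-06), as did 8.91% of all genes. In WT the log2FC under lincomycin was −0.30 (SE 0.44, edgeR adjusted p = 0.760), and a difference was not detectable at this depth.

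*SIG4*, known for transcribing *ndhF* of the plastid NDH complex, was lower with lincomycin in both genotypes. Without drug its levels were 7.42, 6.74 and 7.47 normalized CPM in WT and 9.53, 7.74 and 9.97 in *pifq*. With lincomycin they were 5.201, 4.92 and 4.26 in WT and 3.42, 2.89 and 4.94 in *pifq*. Treated and untreated libraries did not overlap in either genotype. The log2FC under lincomycin was −1.29 in *pifq* (SE 0.22, edgeR adjusted p = 0.00101). In WT it was −0.61 (SE 0.17, edgeR adjusted p = 0.0430), and this call was lost when any 1 of 5 of the 6 libraries was left out (adjusted p up to 0.185; only WT dark replicate 2 could be spared), and with DESeq2 (adjusted p = 0.0528). Between *pifq* dark and WT dark the log2FC was 0.32 (SE 0.16, edgeR adjusted p = 0.135), and library totals in place of TMM turned it to −0.059. Treated *pifq* was below untreated WT, with −0.95 (SE 0.20, edgeR adjusted p = 0.00178).

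*SIG2*, which transcribes plastid tRNA genes including the tRNA-Glu used for tetrapyrrole synthesis, was the most abundant member in every library. Without drug its levels were 61.7, 81.0 and 75.2 normalized CPM in WT and 125, 101.3 and 133 in *pifq*. With lincomycin they were 60.0, 79.4 and 68.5 in WT and 80.7, 78.6 and 80.3 in *pifq*. The *pifq* dark libraries lay above all others on this scale, and the other groups overlapped. On CPM of the library total *pifq* dark overlapped with WT dark and with *pifq* dark linc. *SIG2* was higher in *pifq* dark than in WT dark, with a log2FC of 0.71 (SE 0.15, edgeR adjusted p = 0.00252), and fell under lincomycin in *pifq*, with −0.59 (SE 0.12, edgeR adjusted p = 0.00404). Both calls were lost on library totals, which gave 0.34 (adjusted p = 0.0690) and −0.26 (adjusted p = 0.116) and moved the median log2FC of all genes to −0.38 and 0.33. In WT its log2FC under lincomycin was −0.08 (SE 0.14, edgeR adjusted p = 0.783).

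*SIG6*, a sigma factor needed for early chloroplast development in cotyledons, was higher in *pifq* than in WT, and a response to lincomycin was not detected. Without drug its levels were 13.3, 19.8 and 18.5 normalized CPM in WT and 25.3, 22.7 and 27.8 in *pifq*. With lincomycin they were 14.99, 17.1 and 19.8 in WT and 20.1, 24.7 and 22.0 in *pifq*. All 6 *pifq* libraries lay above all 6 WT libraries on this scale. Without drug the log2FC between genotypes was 0.55 (SE 0.16, edgeR adjusted p = 0.0201). This call was lost without WT dark replicate 1 (0.38, adjusted p = 0.0828), without *pifq* dark replicate 1 (0.54, adjusted p = 0.0584) and on library totals (0.18, adjusted p = 0.389). With lincomycin it was 0.35 (SE 0.14, edgeR adjusted p = 0.0483), a call lost in 8 of 12 alternatives, among them leaving out replicates 1 or 2 of WT dark linc or 2 or 3 of *pifq* dark linc (0.26 to 0.37). Under lincomycin the log2FC was 0.00 in WT (SE 0.16, edgeR adjusted p = 0.998) and −0.19 in *pifq* (SE 0.13, edgeR adjusted p = 0.324).

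*SIG3*, known for transcribing *psbN*, did not pass in any comparison in which it could be tested. Its levels were between 3.39 and 5.64 normalized CPM in the 12 libraries, and every pair of groups overlapped. The log2FC between *pifq* dark and WT dark was 0.08 (SE 0.20, edgeR adjusted p = 0.781), and under lincomycin in WT it was −0.19 (SE 0.21, edgeR adjusted p = 0.653). Under lincomycin in *pifq* the gene was below the minimum, and the fit without one gave 0.05 (SE 0.20, edgeR adjusted p = 0.896). It was also below the minimum between treated genotypes, where the fit without one gave 0.31 (SE 0.21, edgeR adjusted p = 0.299).

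**Figure D2:**
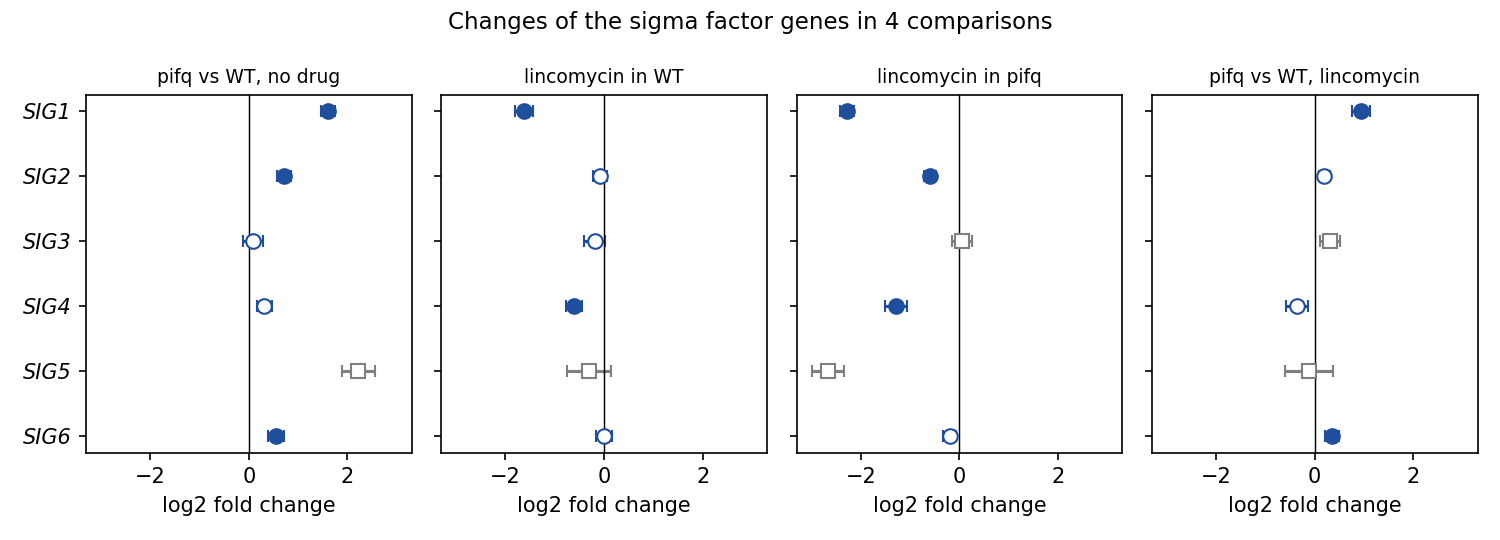
Log2 fold changes (horizontal axis) of the 6 genes (vertical axis) in 4 comparisons, with bars of 1 SE. Filled circles had an adjusted p of at most 0.05, open circles did not, and grey squares are genes below the minimum, from the fit without one. *SIG1* is filled in all 4 panels, at 1.60, −1.63, −2.28 and 0.94.

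Counted by comparison, the effect of the *pifq* mutations in darkness could be tested for 5 members. Genes are called statistically significant (SS) where the adjusted p is 0.05 or less, and SSTF where it is 0.01 or less and the change is at least 2-fold. *SIG1*, *SIG2* and *SIG6* were SS-higher in *pifq* dark than in WT dark, against 21.0% of all genes tested, and 0 members were SS-lower, against 20.0%. *SIG1* was SSTF-higher, against 6.60% of all genes. The libraries of *SIG1*, *SIG2*, *SIG4*, *SIG5* and *SIG6* were higher without overlap, against 27.0% of the genes tested, which do not include *SIG5*. On CPM of the library total *SIG2*, *SIG4* and *SIG6* overlapped, and *SIG1* and *SIG5* did not. The median log2FC of the 5 tested members was 0.55, and that of all genes was 0.00.

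The response to lincomycin asks how the nucleus reacts to plastids that cannot translate. In WT, *SIG1* and *SIG4* of 5 tested members were SS-lower, against 3.08% of all genes, and none was SS-higher, against 3.03%. The same genes were lower without overlap, against 10.5% of all genes, and *SIG1* was SSTF-lower, against 1.00%. The median log2FC was −0.19 for the members and −0.01 for all genes. In *pifq*, *SIG1*, *SIG2* and *SIG4* of 4 tested members were SS-lower, against 13.5% of all genes, and none was SS-higher, against 9.68%. These 3 and *SIG5* were lower without overlap, against 20.4% of the genes tested, which do not include *SIG5*. On CPM of the library total *SIG2* overlapped. *SIG1* and *SIG4* were SSTF-lower, against 4.54%. The median was −0.94 for the 4 tested members and 0.00 for all genes. It depends on the minimum, which left out *SIG3* and *SIG5*, at 0.05 and −2.66 in the fit without one. *SIG4* in *pifq* reached the minimum through the untreated libraries, with 3.40, 2.91 and 5.48 CPM of the library total in the treated ones. *SIG1* in WT did so too, with 4.62, 4.05 and 6.04 in the treated ones. These counts are limited by this.

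With both genotypes on lincomycin, *SIG1* and *SIG6* of 4 tested members were SS-higher in *pifq*, against 17.4% of all genes, and none was SS-lower, against 18.5%. The same genes were higher without overlap, against 22.6%, but on CPM of the library total *SIG6* overlapped. Set against untreated WT, *SIG1* and *SIG4* of 5 tested members were SS-lower in treated *pifq*, against 24.3%, and none was SS-higher, against 23.9% (*SIG6* had a log2FC of 0.38, edgeR adjusted p = 0.0585). *SIG1* and *SIG4* were lower without overlap there, against 28.0% of all genes, and *SIG6* was higher without overlap, against 27.3%. On CPM of the library total *SIG6* overlapped here too. In the directions in which edgeR called no member in these 5 comparisons DESeq2 called none either, and *SIG6* in the last one was the 1 member with an unadjusted p under 0.05. The comparisons share libraries. *SIG1* between treated genotypes and *SIG4* against untreated WT reached the minimum only through the group where each was higher.

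Whether the response to lincomycin differed between genotypes was tested as an interaction over the 12 libraries. None of 5 tested members passed in edgeR or DESeq2, where 3.75% of all 14040 genes had a more negative response in *pifq* and 1.23% a more positive one. *SIG1*, *SIG2* and *SIG4* had an unadjusted p under 0.05. The difference of the log2FC (*pifq* minus WT) was −0.66 for *SIG1* (SE 0.22, edgeR adjusted p = 0.114). It was −0.51 for *SIG2* (SE 0.19, edgeR adjusted p = 0.159). It was −0.68 for *SIG4* (SE 0.27, edgeR adjusted p = 0.211). *SIG6* had −0.19 and *SIG3* 0.23 (adjusted p = 0.782 and 0.801). In the fit without a minimum, where 2.68% of all genes had a more negative response in *pifq*, *SIG5* passed with −2.36 (SE 0.58, edgeR adjusted p = 0.00674). Its mean in WT dark was already near its means in the treated groups.

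How far lincomycin took *pifq* back to the dark WT level was expressed as reversion on group means. A value of 0% leaves the gene at its *pifq* dark level, and 100% brings it to WT dark. Reversion was 118% for *SIG1*, 105% for *SIG5*, 84.6% for *SIG2* and 37.3% for *SIG6*. On CPM of the library total it was 129%, 109% and 79.6% for the first 3. For *SIG6* that scale gave −82.9%, since its mean was then 18.6 CPM in WT dark, 21.1 in *pifq* dark and 23.1 in treated *pifq*. *SIG3* and *SIG4* did not differ by the test between untreated genotypes, and no reversion is given.

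Summed over the 6 genes, the level was 116.5 ± 15.3 normalized CPM in WT dark and 206.0 ± 24.6 in *pifq* dark, and 100.6 ± 10.8 and 120.4 ± 1.76 with lincomycin (SD, n = 3). The *pifq* dark libraries, between 180.4 and 229.4, lay above the rest. The make-up of the sum differed too. *SIG1* gave 12.2% ± 0.184 of it in WT dark and 21.2% ± 1.40 in *pifq* dark, but 4.60% ± 1.07 in WT dark linc and 7.47% ± 0.483 in *pifq* dark linc, without overlap among the 4 groups. *SIG2* gave 62.3% ± 0.712 and 58.0% ± 1.96 without drug and 68.8% ± 2.71 and 66.4% ± 1.59 with it, for WT and *pifq*. *SIG6* gave 14.7% ± 1.09 and 12.3% ± 0.265 without drug and 17.2% ± 1.96 and 18.5% ± 1.83 with it. Shares do not depend on how libraries are scaled to each other.

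**Figure D3:**
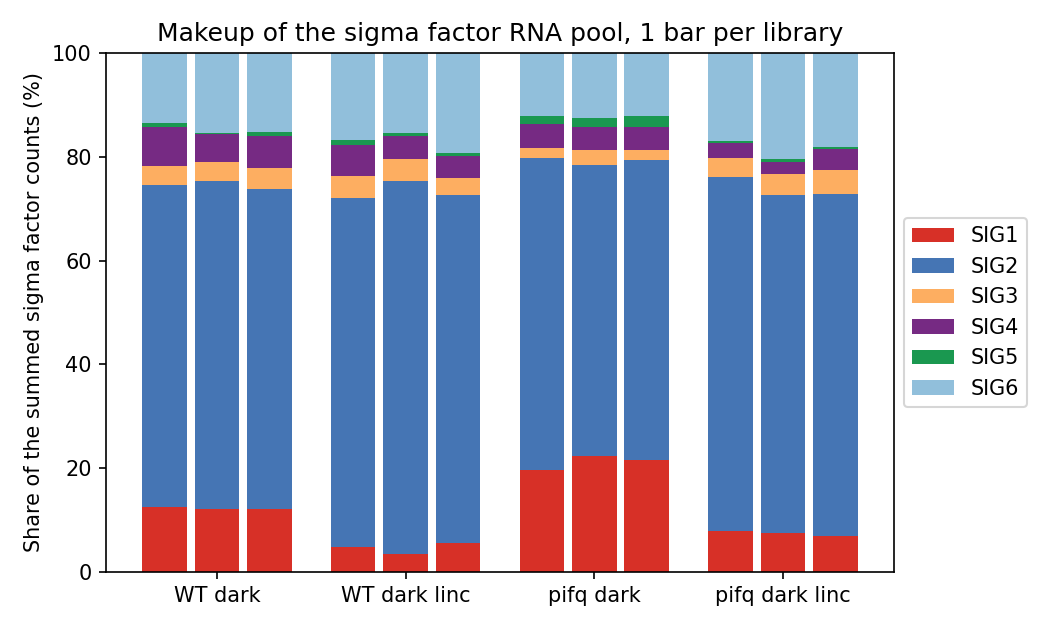
Share of each gene in the summed counts of the 6 sigma factor genes (vertical axis, percent, from 0), with 1 bar per library in 4 groups of 3. *SIG2* takes the largest share of every bar, from 56.1% to 71.9%, and *SIG1* runs from 3.47% to 5.61% in WT dark linc and from 19.6% to 22.4% in *pifq* dark.

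By mean level the order in WT dark was *SIG2*, *SIG6*, *SIG1*, *SIG4*, *SIG3* and *SIG5*. Of neighbours in that order, *SIG6* and *SIG1* overlapped there. In *pifq* dark *SIG1* stood above *SIG6* without overlap, and *SIG3* and *SIG5* overlapped at 4.24 to 5.21 and 3.08 to 4.94. In WT dark linc *SIG4*, *SIG1* and *SIG3* overlapped, at means of 4.79, 4.59 and 3.97. In *pifq* dark linc *SIG1* was above *SIG3* and *SIG4*, which overlapped at 4.33 to 5.64 and 2.89 to 4.94.

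Most partner genes of the polymerase that were tested were higher with lincomycin. Polymerase-associated proteins (PAPs) are nuclear-encoded proteins bound to the plastid-encoded core. Of 11 PAP genes tested in WT, 8 were SS-higher, against 3.03% of all genes, and none SS-lower, against 3.08%, with a median log2FC of 0.94 (−0.01 for all genes). In *pifq*, 8 of 11 were SS-higher, against 9.68%, and 1 SS-lower, against 13.5%, with a median of 0.66 (0.00 for all genes). *PAP3* had a log2FC of 1.64 in WT and 1.91 in *pifq* (edgeR adjusted p = 8.42e-06 and 2.12e-07). *PAP5* (HEMERA), a protein of phytochrome signalling and plastid transcription, had 1.22 and 1.35 (edgeR adjusted p = 0.000277 and 2.76e-06). *PAP12* was the 1 SS-lower gene in *pifq*, with −0.75 (edgeR adjusted p = 0.00271), and *PAP2* and *PAP8* were SS in neither genotype.

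Phage-type polymerases are the nuclear-encoded enzymes that read plastid and mitochondrial genes without sigma factors. Both genes of this list that were tested were SS-higher in both genotypes, against the same shares of 3.03% in WT and 9.68% in *pifq*. *RPOTp* reached the minimum of 5 CPM only in treated libraries. It could thus enter these tests only through the group where it was high, and the count is limited by this. *RPOTp*, the plastid enzyme, rose with a log2FC of 1.16 in WT and 1.68 in *pifq* (edgeR adjusted p = 0.00121 and 0.000766). *RPOTm*, the mitochondrial enzyme, rose by 0.66 and 0.79 (edgeR adjusted p = 0.0253 and 0.00519), and *RPOTmp* was below the minimum. Of 6 tested regulators of sigma factors or of the polymerase, *PRIN2* and *RCB*, which promote activity of the plastid-encoded polymerase, were SS-higher in both genotypes, against 3.03% of all genes in WT and 9.68% in *pifq*. None was SS-lower, against 3.08% and 13.5%. *PRIN2* had 1.42 and 1.58 (edgeR adjusted p = 2.93e-06 and 8.40e-06), and *RCB* had 1.34 and 0.90 (edgeR adjusted p = 0.00113 and 0.00762). *RCB*, like *RPOTp*, reached the minimum only in treated libraries, so its place among the genes tested depended on its rise. The sigma factor-binding protein gene *SIB2* had −0.30 and 0.26 (edgeR adjusted p = 0.160 and 0.225).

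**Figure D4:**
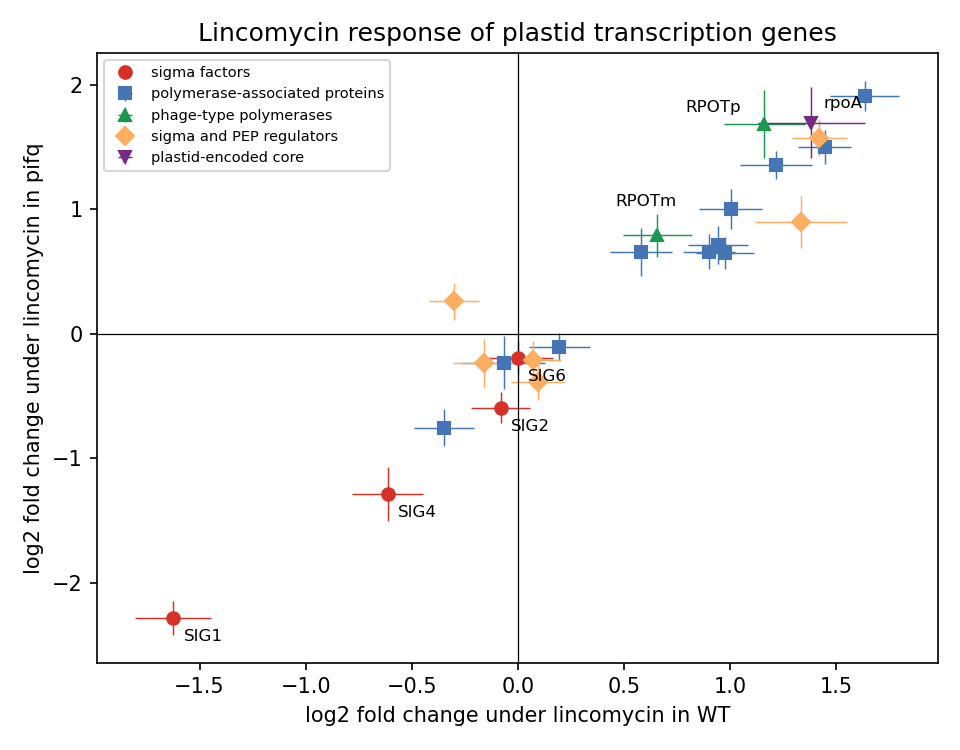
Log2 fold change under lincomycin in WT (horizontal axis) and in *pifq* (vertical axis) for genes of plastid transcription tested in both, with bars of 1 SE and lists marked by colour and shape. *SIG1* lies lowest, at −1.63 and −2.28, and *PAP3* highest among the PAP genes, at 1.64 and 1.91.

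Between the untreated genotypes fewer partners passed. *PAP8*, *PAP10* and *PAP12* of 11 tested PAP genes were SS-higher in *pifq* dark, near the 21.0% of all genes, and none was SS-lower, against 20.0%. Their log2FC was 0.46, 0.41 and 0.60 (edgeR adjusted p = 0.0208, 0.0474 and 0.0132). Of 5 tested regulators, *CKA4*, a plastid casein kinase subunit, was higher by 0.55 (edgeR adjusted p = 0.00665) and *SIB2* was lower, with −0.66 (edgeR adjusted p = 0.00187). These counts of 1 in each direction are also near the shares of 21.0% and 20.0% of all genes. None of the PAP, phage-type polymerase and regulator genes passed the interaction test, among 12, 2 and 6 tested.

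Transcripts of the plastid itself were read only in part, since most plastid RNA lacks the polyA tail on which these libraries depend. The core subunit gene *rpoA* had means of 26.8 normalized CPM in WT dark and 45.9 in *pifq* dark, and of 70.2 and 150 with lincomycin. It rose under lincomycin by 1.38 in WT and 1.70 in *pifq* on the log2 scale (edgeR adjusted p = 0.00299 and 0.00102). The other core genes were below the minimum. The 7 plastid genes *psbA*, *psbD*, *psbN*, *psaA*, *psaJ*, *ndhF* and *rbcL* together had 9, 17 and 11 counts in the WT dark libraries and 59, 82 and 12 in *pifq* dark, and 12, 4 and 9 and 8, 9 and 10 with lincomycin. Replicates 1 and 2 of *pifq* dark stood above the rest and replicate 3 did not, and none of these genes could be tested.

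Genes with the most similar pattern were taken by Pearson's r on log2(normalized CPM + 1) over the 12 libraries, among 14040 genes. The points share genotype, drug and scaling, so r follows mainly the 4 group means. *SIG1* was closest to AT5G13770 (r = 0.995), to AT1G74470, which encodes geranylgeranyl reductase (r = 0.993), and to *GAPA*, a subunit of chloroplast glyceraldehyde-3-phosphate dehydrogenase (r = 0.989). *SIG5* was closest to *HDR*, the last enzyme of the plastid isoprenoid pathway (r = 0.976), to *STN7*, a thylakoid protein kinase (r = 0.974), and to AT5G42070 (r = 0.972). *SIG2* was closest to AT5G21222 (r = 0.980), to *SCO1*, a plastid elongation factor (r = 0.966), and to *GHS1*, a plastid ribosomal protein (r = 0.961). *SIG4* was closest to *FAH1* (r = 0.980), *ER-ANT1* (r = 0.966) and AT4G33540 (r = 0.960). *SIG6* was closest to *emb1211* (r = 0.939), AT2G27680 (r = 0.933) and AT1G52270 (r = 0.931). For *SIG3* the values were lower, with AT1G19715 (r = 0.855), *SOX* (r = 0.850) and AT2G03550 (r = 0.845). Between members, r ran from 0.088 for *SIG3* and *SIG4* to 0.851 for *SIG1* and *SIG5*.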

How the data were processed

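The authors prepared directional libraries of polyA-tailed 3′ fragments from biological triplicates and aligned them with Bowtie 0.12.7 (1 mismatch) to TAIR10 representative transcripts, restricted to their last 500 bp. The deposited values are raw counts, with technical duplicate runs not kept apart. Columns were assigned to samples by title.

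Each comparison was fitted on its 6 libraries in edgeR 4.0.16 (R 4.3.3; glmQLFTest, TMM) after the study's minimum of 5 CPM in 2 libraries, with p-values adjusted over all genes kept. The interaction was fitted on 12. The SE is |log2FC|/√F. The script was tested on simulated data. Alternatives were RLE factors, library totals, DESeq2 1.42.0, no minimum, 1 fit over 12 libraries, a replicate block and leaving out each library.

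Same-numbered libraries deviated together in every pair only between *pifq* dark linc and *pifq* dark (r from 0.369 to 0.539, 3 pairs). The values given for this comparison still come from an unpaired fit, and the replicate block is the alternative that pairs them. Sequences and gene models are from RefSeq's TAIR10.1, where 32835 loci matched. The members and lists were chosen with earlier results of these data known. Named genes were the members, the listed genes and the 3 most similar genes per member.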

Additional observations from a re-analysis of the deposited data

Results flagged for a closer look

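The response of *SIG5* to lincomycin differed between the genotypes by a test of the difference itself, over the 12 libraries with no minimum on counts. The interaction was −2.36 (SE 0.58, edgeR adjusted p = 0.00674), from a log2FC of −2.66 in *pifq* and −0.30 in WT. It rests on 4 to 22 counts per library in the WT groups, and leaving out single libraries was not run for it. The mean of *SIG5* in WT dark was 0.741 normalized CPM, already near the 0.631 in WT dark linc and 0.580 in *pifq* dark linc. Whether the low level in WT dark bears on the difference was not tested.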

How the results depend on the processing

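Calls for *SIG1* held under every alternative in the 5 pairwise comparisons, as did those for *SIG4* under lincomycin in *pifq*. With library totals in place of TMM, 1 member was SS-higher in *pifq* dark than in WT dark, 1 SS-lower under lincomycin in WT and 1 SS-higher between treated genotypes. Uncalled values that changed sign with it were *SIG3* (−0.30) and *SIG4* (−0.059) between untreated genotypes, and *SIG6* under lincomycin in WT (−0.0067), in *pifq* (0.14) and in the interaction (0.14). DESeq2 and 1 fit over all 12 libraries each left 1 member SS-lower under lincomycin in WT and 1 SS-higher between treated genotypes. With the replicate block, 1 member was SS-higher between treated genotypes, *SIG6* being lost there (0.36, adjusted p = 0.0565), and 1 was SS-higher in treated *pifq* than in untreated WT, *SIG6* being gained (0.39, adjusted p = 0.0211). It changed no other call of a member. Outside *pifq* dark linc against *pifq* dark the numbers did not pair the samples (mean r from −0.0833 to 0.262). With no minimum, 1 member (*SIG6*) was SS-higher in treated *pifq* than in untreated WT, and 1 (*SIG5*) passed the interaction. *SIG5* was then also SS-higher in *pifq* dark than in WT dark (2.22, edgeR adjusted p = 8.27e-06). Under lincomycin in *pifq* it was SS-lower (−2.66, edgeR adjusted p = 1.15e-06).

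Leaving out 1 library at a time gave 2 to 3 members SS-higher in *pifq* dark, 1 to 2 SS-lower under lincomycin in WT, 1 to 2 SS-higher and 0 to 1 SS-lower between treated genotypes, and 0 to 1 SS-higher in treated *pifq* than in untreated WT. *SIG3* between untreated genotypes ran from −0.065 to 0.15, and under lincomycin in WT *SIG2* ran from −0.19 to 0.019 and *SIG6* from −0.15 to 0.12. *SIG4* between treated genotypes passed without *pifq* dark linc replicate 3 (−0.60, adjusted p = 0.0453), and *SIG6* in *pifq* dark linc against WT dark without WT dark replicate 2 (0.48, adjusted p = 0.0148). The cause of these shifts was not tested. The share of all genes called was counted in the main fits and with no minimum only. Under the other alternatives a changed count of members therefore cannot be told apart from a change over all genes. Depth limits *SIG5*, with 4 to 55 counts per library.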
